A study of Mus musculus with 46 samples.

Results

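Progress through the cell cycle was followed through 38 genes, of the 48795 in the expression table, that fall into 2 arms by their role. The 16 replication genes act around the G1/S transition: Mcm2 to Mcm7, Cdc6, Cdt1 and Gins2 license and open replication origins, Rrm1, Rrm2, Tyms and Pcna supply nucleotides and the polymerase clamp, and E2f1, Ccne1 and Ccne2 form the G1/S switch. The 22 mitotic genes act in G2 and M and comprise the cyclins and their kinase (Ccna2, Ccnb1, Ccnb2, Cdk1), kinases and checkpoint factors (Plk1, Aurka, Aurkb, Bub1, Bub1b, Birc5), kinesins and spindle factors (Kif11, Kif20a, Kif23, Tpx2, Nusap1), centromere proteins (Cenpa, Cenpe, Cenpf), the chromosome proteins Top2a and Mki67, and the anaphase-promoting complex factors Cdc20 and Ube2c. Membership was set by the genes' roles, though with earlier results of these data known. Each of the 38 genes matched 1 row of the table and passed the filter on low values in every comparison.

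RNA sequencing was performed on 46 samples in 8 groups. MC-38, a mouse colon carcinoma line, was grown in culture (n = 3) or injected subcutaneously into the flank of female C57BL/6NTac mice. Tumors were taken at baseline without treatment (n = 3), or from WT mice given an isotype control antibody or muDX400, an antibody against the inhibitory T cell receptor PD-1 (5 mg/kg, intraperitoneal), after 1 dose (labelled day 4, which is day 11 after implantation, n = 5 each) or 2 doses (labelled day 8, day 15 after implantation, n = 5 each). In PD-1cKO mice (n = 10) a tamoxifen-inducible Cre expressed from Rosa26, and so not restricted to T cells, cuts both floxed Pdcd1 alleles. The PD-1cKO mice and their WT littermates (n = 10) both received tamoxifen (40 mg/kg) and are labelled day 28, and the implanted MC-38 cells were not edited. The study's text counts this day from implantation, but its methods give an earlier day for these tumors. It describes the antibody-treated and PD-1cKO samples as individual animals. It does not say whether the WT littermates carried floxed alleles or Cre, though its breeding also gave floxed mice without Cre. No source used here says whether the cultures or the baseline tumors were separate, so p-values with them may measure technical spread only. In whole tumors fewer cycling cells and less of these transcripts per cell cannot be told apart, and tumor and host RNA are measured together.

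Cells copy their DNA in S phase and divide it in M phase. E2F factors, held back by the retinoblastoma family until cyclin-dependent kinases release them, are known to turn on replication genes, and cyclin B with Cdk1 drives entry into mitosis. Mitotic genes peak later, and many carry a CHR element, bound by the DREAM and MuvB complexes, often beside CCAAT boxes bound by NF-Y.

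The promoters of the 2 arms were compared because these regulators bind there. A RefSeq window of 250 bases before to 50 bases after the start (GRCm38.p6) was given for 31 of the 38 members, 13 replication and 18 mitotic. The letters TTTCCCGC, TTTCGCGC, TTTGCCGC and TTTGGCGC (E2F), TTTGAA (CHR) and CCAAT were searched on both strands. E2F letters were in 6 of 13 replication genes (46.2%), 1 of 18 mitotic genes (5.56%) and 2.6% of all 27025 genes with a window. CHR letters were in 1 of 13 replication genes (7.69%), 13 of 18 mitotic genes (72.2%) and 20.2% of all genes. CCAAT was in 8 of 13 replication genes, 16 of 18 mitotic genes and 41.1% of all genes. Among other genes of the pathway, E2F letters were in 12 of 29 replication and 4 of 42 mitotic genes, and CHR letters in 4 and 29. A match of letters is a description and not a binding site. The 150 bases before the start of 2 replication and 4 mitotic members follow, 5′ to 3′ on the gene's strand, chosen to show the letters that mark each arm, with all matched letters in capitals. In Mcm6, matches on opposite strands overlap. Cdk1 is the mitotic member with E2F letters as well as CHR.
Mcm6, chr1:128359706-128359855, minus strand: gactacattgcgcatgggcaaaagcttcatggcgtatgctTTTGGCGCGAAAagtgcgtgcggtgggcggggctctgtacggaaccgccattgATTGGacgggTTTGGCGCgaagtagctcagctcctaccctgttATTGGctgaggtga
Cdc6, chr11:98908001-98908150, plus strand: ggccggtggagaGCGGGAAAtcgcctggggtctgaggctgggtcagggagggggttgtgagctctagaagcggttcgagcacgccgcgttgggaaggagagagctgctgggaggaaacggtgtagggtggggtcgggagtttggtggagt
Cdc20, chr4:118437344-118437493, minus strand: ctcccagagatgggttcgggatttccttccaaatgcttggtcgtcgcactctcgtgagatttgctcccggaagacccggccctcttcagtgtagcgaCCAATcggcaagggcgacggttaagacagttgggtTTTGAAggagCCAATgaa
Ube2c, chr2:164769779-164769928, plus strand: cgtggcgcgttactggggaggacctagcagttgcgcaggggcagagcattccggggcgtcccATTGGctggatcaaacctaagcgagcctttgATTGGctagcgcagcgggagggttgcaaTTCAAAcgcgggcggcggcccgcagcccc
Top2a, chr11:99024190-99024339, minus strand: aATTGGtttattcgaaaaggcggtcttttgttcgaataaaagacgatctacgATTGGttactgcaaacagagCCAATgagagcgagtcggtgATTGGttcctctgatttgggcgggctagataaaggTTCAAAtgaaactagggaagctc
Cdk1, chr10:69352913-69353062, minus strand: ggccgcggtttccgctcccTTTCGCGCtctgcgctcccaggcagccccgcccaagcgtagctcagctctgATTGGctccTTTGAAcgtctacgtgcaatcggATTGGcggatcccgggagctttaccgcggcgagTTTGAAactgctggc

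Some facts of the whole series bear on every comparison. The deposited unit was FPKM (fragments per kilobase of gene, scaled to library size), without counts, and the mapped reads of each library are not given in the sources used here, only a range over all samples. Short non-coding RNA took 30.2 to 54.6% of FPKM in WT and 31.1 to 66.5% in PD-1cKO libraries and at most 0.0817% elsewhere, so levels in WT and PD-1cKO are not compared with those of the other groups. Mitochondrial genes took 54.6% of FPKM in isotype control 1 dose replicate 1, against 3.45 to 4.31% in the other 4. Sample identifiers fell in separate ranges for the cultures, the baseline tumors, the groups after 1 dose and the groups after 2 doses. Comparisons across these sets are split by identifier range, and those of PD-1 Ab with isotype control at the same dose are not. What the ranges stand for is not stated. Pdcd1 was at 1.71 to 7.02 FPKM (median 3.01) in WT and 5.05 to 19.9 FPKM (median 8.29) under the PD-1cKO label (log2 fold change 1.49 ± 0.24 SE, adjusted p = 0.000658), and a value over the whole gene cannot check the loss of its floxed exons. Epithelial marker RNA was near 0 in the cultured carcinoma line: 8 markers summed to 0.658 to 0.793 FPKM, and Cdx2 was listed at 0 in all 3 cultures.

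Among the culture, baseline and antibody samples both arm means were highest in culture. There the members ranged in level from 13.2 FPKM for Ccne1 to 273 for Top2a. The mean of log2(FPKM + 0.1) was 5.55 to 5.57 over the replication genes and 5.95 to 6.00 over the mitotic genes in the 3 cultures, and 4.88 to 5.33 and 5.23 to 5.49 in the 3 baseline tumors. The spread was widest in PD-1cKO, at 2.34 to 4.54 and 1.28 to 4.69.

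**Figure D1:**
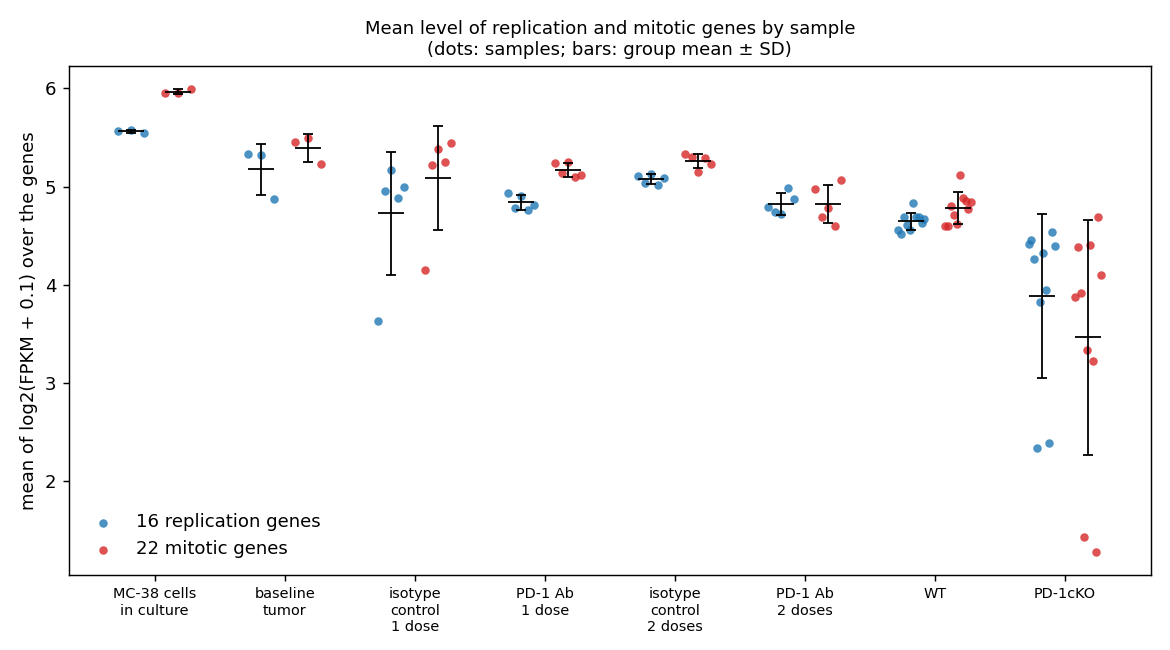
Mean of log2(FPKM + 0.1) over 16 replication genes (blue) and 22 mitotic genes (red) in each of the 46 samples, by group, with bars for the group mean ± SD. The 3 cultures sit above the baseline and antibody tumors, and within the other experiment PD-1cKO tumors 4 and 8 sit lowest, at replication means of 2.34 and 2.39.

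Tumors were first set against the cells they were made from. Between baseline tumors and culture, 25 of 38 members fell (6 replication, 19 mitotic) and none rose at an adjusted p under 0.01 (limma), where 18.3% of 15217 genes fell. Mki67, the proliferation antigen Ki-67, was at 87.6, 84.8 and 94.3 FPKM in culture and 38.4, 42.6 and 36.3 in baseline tumors (log2 fold change -1.18 ± 0.07 SE, adjusted p = 1.18e-05). The groups did not overlap. Cdk1, the mitotic kinase, was at 143, 147 and 156 FPKM in culture and 106, 108 and 87.4 in baseline tumors (log2 fold change -0.57 ± 0.09 SE, adjusted p = 0.00103), again without overlap. Cenpe, a centromere motor, had a log2 fold change of -1.05 ± 0.10 and Kif11, a spindle kinesin, -1.03 ± 0.08. Cdc6, which loads the replicative helicase, was lowest of the replication genes (log2 fold change -0.70 ± 0.17 SE, adjusted p = 0.00904). Ccne1, cyclin E1, was at 13.1, 13.6 and 12.9 FPKM in culture and 16, 15 and 13.1 in baseline tumors, where the groups overlapped (log2 fold change 0.15 ± 0.08 SE, adjusted p = 0.168). The median log2 fold change was -0.42 over the replication genes, -0.54 over the mitotic genes and -0.04 over all genes tested. Of the other lists, 21 of 38 replication and 37 of 49 mitotic genes fell. The G1 genes Ccnd1 (0.39 ± 0.05) and Myc (0.35 ± 0.07) rose, as did the CDK inhibitor Cdkn1a (1.72 ± 0.08). The member count was 11, 13 and 12 without culture replicates 1, 2 and 3 in turn, and the replication part of it was 0 without culture replicate 1 and 11 without baseline tumor replicate 3. Macrophage markers (7 genes) summed to 435 to 998 FPKM in baseline tumors and 2.56 to 3.14 in culture (7 rose), fibroblast markers (7 genes) to 884 to 1549 and 109 to 114 (6 rose, 1 fell), and T cell markers (8 genes) to 5.19 to 20.5 and 0.16 to 0.286 (7 rose). Their part in the result was not tested.

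After 2 doses of isotype control, 28 of 38 members were lower than in culture (11 replication, 17 mitotic), against 16.8% of 15199 genes. Cenpf, Mki67, Cenpe and Kif11 were lower by 2-fold or more, 4 of 38, against 7.09% of genes. Of these, Cenpf, Mki67 and Cenpe are the only members with a transcript over 6 kb, and the part of length was not tested. Both comparisons share the 3 cultures. Cdc6 was at 23.2, 24.6 and 24 FPKM in culture and 12.6, 12.7, 12.2, 11.1 and 12.2 in these tumors (log2 fold change -0.97 ± 0.08 SE, adjusted p = 7.62e-06), and the groups did not overlap. Rrm2, a subunit of ribonucleotide reductase, was at 98.1, 94.8 and 93.2 FPKM in culture and 56.6, 56.7, 55.3, 57.4 and 54.5 in these tumors (log2 fold change -0.76 ± 0.06 SE, adjusted p = 8.06e-06), also without overlap. Ube2c, a ubiquitin-conjugating enzyme, was at 121, 122 and 118 FPKM in culture and 106, 84.3, 165, 95.5 and 119.9 in these tumors, with overlap (log2 fold change -0.12 ± 0.19 SE, adjusted p = 0.621). Cdkn1a was at 75.9 ± 18.2 FPKM (SD, n = 5) in these tumors and 13.6 ± 0.706 FPKM (SD, n = 3) in culture and rose, and Cdkn2a, another CDK inhibitor, fell (-1.86 ± 0.19). T cell markers summed to 10.9 to 22.5 FPKM in these tumors and 0.16 to 0.286 in culture, macrophage markers to 795 to 1268 and 2.56 to 3.14, and their part in the result was not tested. Between isotype control 2 doses and baseline tumors no member passed (limma, 0 of 38, 3 at an unadjusted p under 0.05, where 2647 of 14967 genes were), and 0.628% of 14967 genes did in either direction. That count was 1 without baseline tumor replicate 3.

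The antibody groups address whether these genes moved under PD-1 blockade. After 1 dose no member passed (limma, 0 of 38, 0 at an unadjusted p under 0.05, where 895 of 14556 genes were), and 0% of 14556 genes did. Top2a, the topoisomerase that untangles chromosomes, was at 104, 153, 193, 186 and 198 FPKM with isotype control and 177, 178, 184, 181 and 179 with PD-1 Ab. Mcm2, of the replicative helicase, was at 11.3, 45, 51.4, 41.8 and 46.1 FPKM with isotype control and 41.1, 36.1, 39.4, 33.4 and 35.6 with PD-1 Ab. For Top2a the treated tumors lay inside the control range, with or without replicate 1. For Mcm2 they did so only through isotype control replicate 1, and all 5 were below the other 4 controls. With a constant sum over nuclear protein-coding genes, 4 of 5 treated mitotic means and 1 of 5 replication means were below every control. The median member log2 fold change was 0.09 against 0.26 over all genes, and it turned to -0.16 under median-of-ratios scaling, where all genes stood at 0.01, and to -0.13 without isotype control 1 dose replicate 1. Isotype control 2 doses against 1 dose gave 0 of 38 members (0 at an unadjusted p under 0.05, where 996 of 14445 genes were) and 0% of 14445 genes.

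After 2 doses of PD-1 Ab, 4 members fell, all mitotic, where 1.56% of 15062 genes fell: Ccnb2 and Ccna2, cyclins that bind Cdk1, Birc5 (survivin, of the chromosomal passenger complex) and Tpx2, which activates Aurora A on the spindle. Birc5 was at 70.6, 62, 103, 60.9 and 78.4 FPKM with isotype control and 48.9, 42.6, 48.5, 53.8 and 46.1 with PD-1 Ab (log2 fold change -0.62 ± 0.14 SE, adjusted p = 0.00985). Every treated tumor was below every control. The log2 fold change was -0.53 ± 0.10 for Ccnb2 (adjusted p = 0.00406), -0.37 ± 0.08 for Ccna2 (adjusted p = 0.00726) and, for Tpx2, -0.41 ± 0.09 (adjusted p = 0.00951). Kif20a, a kinesin of cytokinesis, was at 34.2, 33.5, 29.1, 32.5 and 32.7 FPKM with isotype control and 24.3, 19.5, 22.3, 28.1 and 25.8 with PD-1 Ab and did not overlap either, but did not pass (log2 fold change -0.44 ± 0.11 SE, adjusted p = 0.013). In all, 8 of 38 members did not overlap (Rrm1, Pcna, Top2a, Ccnb2, Ccna2, Kif20a, Birc5, Tpx2), where 6.12% of genes were lower without overlap.

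No replication gene passed after 2 doses (limma, 0 of 16, 8 at an unadjusted p under 0.05, where 5977 of 15062 genes were). Mcm5, another helicase subunit, was at 80.8, 75.3, 83.2, 78.2 and 77.6 FPKM with isotype control and 55.9, 51.4, 54.8, 79.2 and 66.4 with PD-1 Ab (log2 fold change -0.38 ± 0.11 SE, adjusted p = 0.0341). The groups overlapped through PD-1 Ab replicate 4. Rrm1, the partner of Rrm2, had the lowest replication value (log2 fold change -0.55 ± 0.13 SE, adjusted p = 0.0111) and Gins2, of the helicase, the highest (log2 fold change 0.11 ± 0.10 SE, adjusted p = 0.44). Ccne1 was at 13.3, 13.5, 14.5, 12 and 13.5 FPKM with isotype control and 12.2, 14.1, 10.3, 13.1 and 13 with PD-1 Ab, with overlap (adjusted p = 0.541). Among mitotic genes Bub1, a checkpoint kinase, had the lowest value (log2 fold change -0.64 ± 0.28 SE, adjusted p = 0.117) and Aurkb, Aurora B, the highest (log2 fold change -0.25 ± 0.09 SE, adjusted p = 0.0672). Cdc20, the activator of the anaphase-promoting complex, was at 58, 51.9, 69.8, 60.3 and 61.3 FPKM with isotype control and 43.8, 31.3, 43.2, 62.2 and 44 with PD-1 Ab, where replicate 4 of PD-1 Ab alone reached the control range (log2 fold change -0.45 ± 0.15 SE, adjusted p = 0.0521).

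The median log2 fold change after 2 doses was -0.23 over the replication genes, -0.43 over the mitotic genes and -0.04 over all genes. The count of 4 was 0 without isotype control 2 doses replicate 1 or 5 or PD-1 Ab 2 doses replicate 1, 2 or 3, 1 without isotype control replicate 2, 2 without isotype control replicate 4 and 28 with array weights. The share of all genes passing in these settings is not given here, so the changes cannot be read as particular to the members. Of the other lists, 5 of 38 replication genes fell (Dscc1, of a clamp loader, lowest at -0.76 ± 0.14) and 8 of 49 mitotic genes (Cks2, a CDK subunit, lowest at -0.79 ± 0.14). None of 12 G1 cyclin and CDK genes or 10 CDK inhibitor and pocket protein genes passed (limma, 3 and 3 at an unadjusted p under 0.05). T cell markers summed to 44.2 to 184 FPKM with PD-1 Ab and 10.9 to 22.5 with isotype control (8 of 8 rose), macrophage markers to 1489 to 3106 and 795 to 1268 (6 of 7 rose). Endothelial markers summed to 24 to 81.5 and 18.1 to 23.9 (1 of 5 rose), adipose markers to 22 to 701 and 7.31 to 82.1 (1 of 5 rose), skeletal muscle markers to 2.17 to 69 and 0.945 to 1.72 (1 of 5 rose) and fibroblast markers to 1264 to 2916 and 901 to 2080.1 (0 of 7 rose). The part of these cells in the result was not tested. For the effect after 2 doses minus that after 1 dose no member passed (limma, 0 of 38, 4 at an unadjusted p under 0.05, where 1182 of 15289 genes were), and 0% of 15289 genes did.

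The PD-1cKO groups address the same genes under loss of PD-1 in the host. Against WT, 18 of 38 members fell (4 replication, 14 mitotic) and none rose, where 12.6% of 15075 genes fell, and 16 fell by 2-fold or more, where 3.87% of genes did. By role, 5 of 5 kinesins and spindle factors fell, 2 of 2 chromosome proteins, 3 of 4 mitotic cyclins and Cdk1, 2 of 3 centromere proteins, 2 of 6 kinases and checkpoint factors and 0 of 2 anaphase-promoting complex factors. Among replication genes 2 of 9 licensing and helicase genes fell, 2 of 4 nucleotide and clamp genes and 0 of 3 G1/S switch genes.

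Mki67 was at 25.4 to 43.1 FPKM (median 31) in WT and 3.1 to 36.4 FPKM (median 10.0) in PD-1cKO, with 8 of 10 knockout tumors below every WT tumor (log2 fold change -1.54 ± 0.34 SE, adjusted p = 0.00252). Cdk1 was at 61.6 to 109.6 FPKM (median 78.2) in WT and 8.43 to 61.1 FPKM (median 50.2) in PD-1cKO (log2 fold change -1.12 ± 0.31 SE, adjusted p = 0.00839). Its groups did not overlap, nor did those of Mcm6, Ccnb2 and Kif20a, so 4 of 38 members were lower in every knockout tumor than in any WT tumor, against 0.305% of genes. Ccnb1, cyclin B1, was at 46.1 to 74.4 FPKM (median 53.8) in WT and 2.27 to 46.3 FPKM (median 27.4) in PD-1cKO (log2 fold change -1.58 ± 0.44 SE, adjusted p = 0.00878), with 9 of 10 below every WT tumor. Bub1 had the lowest mitotic value (log2 fold change -1.82 ± 0.40 SE, adjusted p = 0.0026), then Cenpe (-1.59 ± 0.41). Cenpa, the centromeric histone, had the highest (log2 fold change -0.44 ± 0.19 SE, adjusted p = 0.0619), then Plk1, a kinase of mitotic entry, at 13.7 to 20.8 FPKM (median 16.4) in WT and 2.32 to 14.5 FPKM (median 11.2) in PD-1cKO (log2 fold change -0.94 ± 0.29 SE, adjusted p = 0.0155).

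The replication genes that fell were Mcm4, Mcm6, Pcna and Rrm1. Pcna, the polymerase clamp, was at 57.5 to 88.3 FPKM (median 74.4) in WT and 36.9 to 75.9 FPKM (median 53.5) in PD-1cKO (log2 fold change -0.48 ± 0.13 SE, adjusted p = 0.00616). Below every WT tumor were 7 of 10 knockout tumors. Rrm2 had the lowest replication value but did not pass (log2 fold change -1.20 ± 0.42 SE, adjusted p = 0.0268). E2f1, the activating factor itself, was at 7.18 to 12.2 FPKM (median 8.37) in WT and 5.16 to 11.6 FPKM (median 9.32) in PD-1cKO, with the ranges overlapping (log2 fold change -0.04 ± 0.16 SE, adjusted p = 0.841). Ccne1 was at 6.63 to 9.3 FPKM (median 7.84) in WT and 1.97 to 9.12 FPKM (median 6.42) in PD-1cKO and did not pass (adjusted p = 0.0878). The median log2 fold change was -0.80 over the replication genes, -1.40 over the mitotic genes and -0.20 over all genes. Under median-of-ratios scaling it was -0.96 over the members and -0.04 over all genes. Of the other lists, 15 of 38 replication genes fell and 25 of 49 mitotic genes (Hmmr, a spindle-associated protein, lowest at -1.71 ± 0.39). Of 10 CDK inhibitors and pocket proteins, Cdkn1c rose from 1.16 ± 0.675 FPKM (SD, n = 10) to 6.86 ± 6.17 FPKM (SD, n = 10) and Cdkn2b fell (log2 fold change -1.25 ± 0.31 SE, adjusted p = 0.00436). Of the 12 G1 cyclin and CDK genes 0 passed (limma, 7 at an unadjusted p under 0.05, where 7968 of 15075 genes were).

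**Figure D2:**
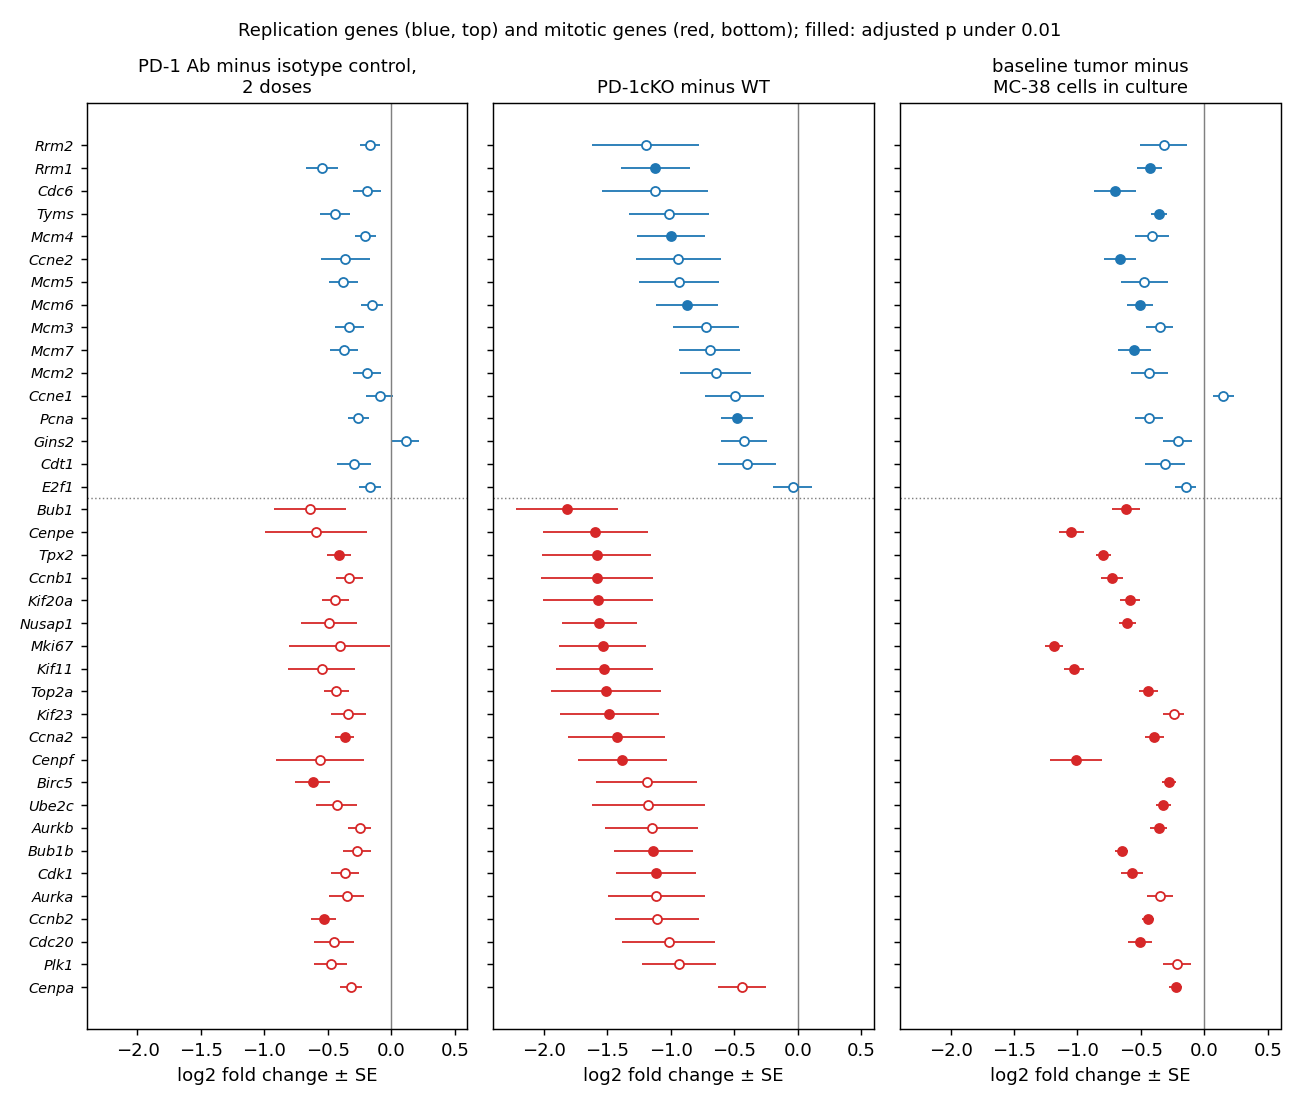
Log2 fold change ± SE of the 38 genes (replication blue, mitotic red) for PD-1 Ab minus isotype control at 2 doses, PD-1cKO minus WT, and baseline tumor minus culture, with filled points at an adjusted p under 0.01. In PD-1cKO the mitotic points run from -1.82 for Bub1 to -0.44 for Cenpa and the replication points from -1.20 for Rrm2 to -0.04 for E2f1.

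The knockout tumors were unlike each other. Kif20a was at 16.8, 23.3, 13.5, 1.66, 9.29, 16.4, 11.1, 1.22, 18.5 and 20.5 FPKM in PD-1cKO tumors 1 to 10, against 23.7 to 42.8 FPKM (median 27.7) in WT. Tumors 4 and 8 were lowest in both arms, with replication means of 2.34 and 2.39 and mitotic means of 1.43 and 1.28. They also had the highest shares of short non-coding RNA in PD-1cKO, 64 and 66.5%, and tumor 9, with the highest mitotic mean, had the lowest at 31.1%. With a constant sum over nuclear protein-coding genes, tumors 4 and 8 were still lowest. Their replication means were then 2.78 and 2.92 and their mitotic means 1.87 and 1.81. Without these 2 tumors 17 members fell (2 replication, 15 mitotic), Pcna no longer passed, and the median member log2 fold change was -0.57 rather than -1.12. The share of all genes that fell in that fit is not given here. Fibroblast markers (7 genes) summed to 12477 and 11117 FPKM in these 2 tumors, 2257 to 9026 in the other 8 and 1092 to 2302 in WT (4 of 7 rose). The matrix genes Col1a1 (log2 fold change 1.68 ± 0.28 SE), Col1a2 (1.94 ± 0.33), Col3a1 (1.48 ± 0.29) and Lum (2.02 ± 0.49) rose, and the receptors Pdgfra (-0.05 ± 0.14) and Pdgfrb (0.14 ± 0.15) and the proteoglycan gene Dcn (0.37 ± 0.24) did not pass. T cell markers summed to 34.9 to 164 in PD-1cKO and 14.8 to 52.3 in WT (8 of 8 rose), macrophage markers to 1341 to 4553 and 935 to 1566 (5 of 7 rose), and the part of these cells in the result was not tested.

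**Figure D3:**
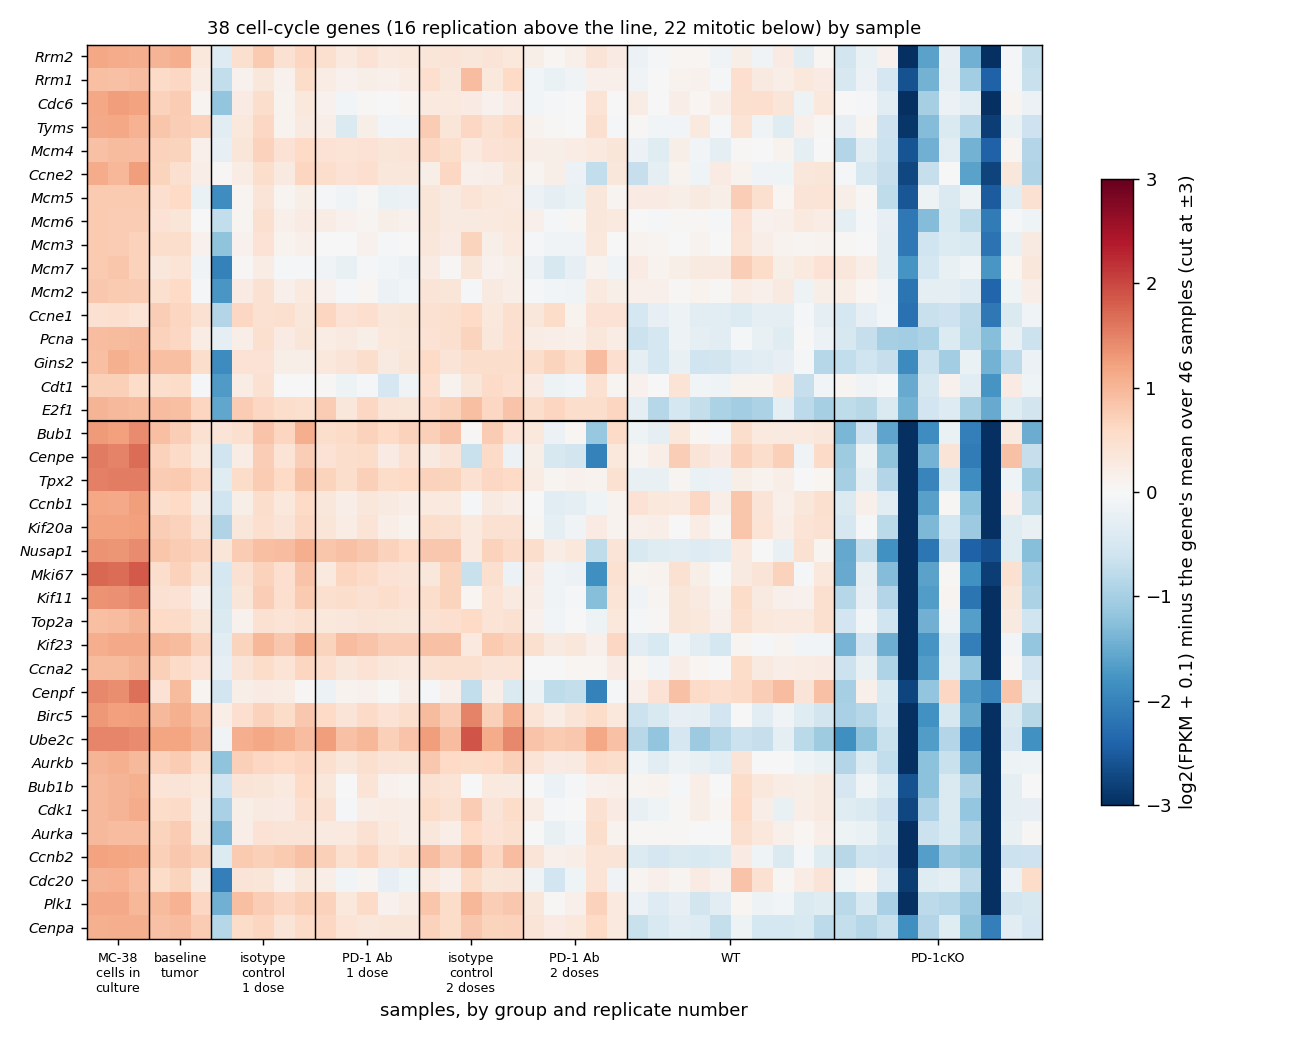
Log2(FPKM + 0.1) of the 38 genes in the 46 samples, each gene minus its mean over all samples and cut at ±3, with replication genes above the line and mitotic genes below. PD-1cKO tumors 4 and 8 are the dark blue columns, at mitotic means of 1.43 and 1.28. Colors of the WT and PD-1cKO columns are not to be read against the other groups, given their larger share of short non-coding RNA.

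Genotype went with the order of the sample identifiers in the labels. A first run of identifiers held PD-1cKO tumors 1 to 7, a second held WT tumors 1 to 9 and PD-1cKO tumor 8, and the last held PD-1cKO tumors 9 and 10 and WT tumor 10. In the last run the mitotic mean was 4.69 and 4.10 in PD-1cKO and 4.84 in WT. In the second it was 1.28 in PD-1cKO tumor 8 and 4.60 to 5.12 in the 9 WT tumors. With run as a covariate no member passed (limma, 0 of 38), with a median member log2 fold change of -1.91. The first run held no WT tumor, so this value rests on PD-1cKO tumors 8, 9 and 10. Tumor 8 had the lowest mitotic mean of the group, so -1.91 cannot be read as an adjusted effect over all PD-1cKO tumors. The count of 18 was 7, 4, 4 and 11 without PD-1cKO replicates 4, 5, 7 and 8 in turn, and 6 to 11 without each of the 10 WT tumors in turn. Over all 20 it was 1 to 6 for the replication part and 3 to 17 for the mitotic part.

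The level of the mitotic genes relative to the replication genes also varied. This difference of the 2 means within a sample, which scaling a sample leaves nearly as it is, was 0.38 to 0.45 in culture, 0.13 to 0.36 in baseline tumors, 0.21 to 0.53 and 0.30 to 0.36 after 1 dose of isotype control and PD-1 Ab, and 0.02 to 0.28 after 2 doses of isotype control. After 2 doses of PD-1 Ab it was -0.39 to 0.19, and 2 of 5 tumors were below every control. In WT it was 0.03 to 0.29 and in PD-1cKO -1.11 to 0.15, with 8 of 10 knockout tumors below every WT tumor. The mean was 0.14 ± 0.07 in WT and -0.42 ± 0.41 in PD-1cKO (SD, n = 10).

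**Figure D4:**
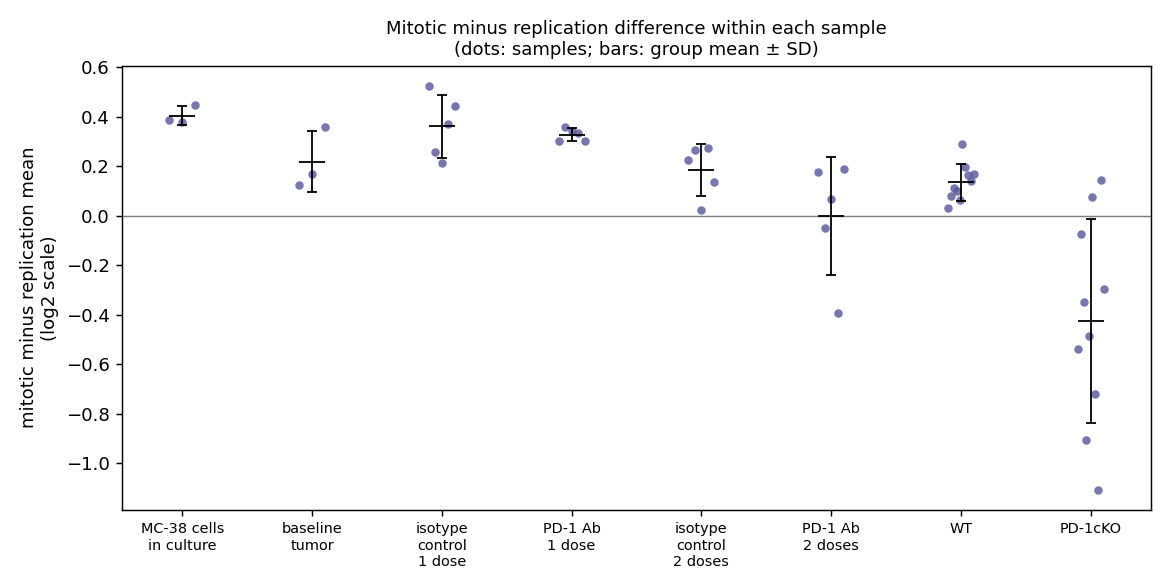
Mean of log2(FPKM + 0.1) over 22 mitotic genes minus that over 16 replication genes, 1 dot a sample, with bars for the group mean ± SD. The PD-1cKO dots run from -1.11 to 0.15 and the WT dots from 0.03 to 0.29.

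Transcript length was set beside some of these values. The 3 members with a transcript over 6 kb, Cenpf, Mki67 and Cenpe, are all mitotic. Mki67 was at 33.4, 41.9, 16.6, 37.1 and 23.5 FPKM after 2 doses of isotype control and 31.5, 24.8, 23.3, 7.3 and 36.6 after 2 doses of PD-1 Ab, lowest in isotype control replicate 3 and PD-1 Ab replicate 4 (log2 fold change -0.41 ± 0.40 SE, adjusted p = 0.47). In that control tumor other genes with transcripts over 6 kb deviated from their group's median by -0.89 (log2) relative to genes with transcripts under 2 kb, and in that treated tumor by -0.21. The same value was -0.32 in isotype control replicate 5. It was 0.33 and 0.29 in PD-1cKO tumors 4 and 8, the lowest in both arms. The part of transcript length in the result was not tested. With the 3 members left out the mean difference between arms was 0.45 with isotype control and 0.28 with PD-1 Ab after 2 doses, and 0.26 in WT and -0.27 in PD-1cKO. With all members it was 0.19 and -0.00028 after 2 doses, and 0.14 and -0.42.

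The antibody effect after 2 doses and the knockout effect were compared across experiments. No member passed for that difference (limma, 0 of 38, 1 at an unadjusted p under 0.05, where 2585 of 16404 genes were), and 0.0975% of 16404 genes did. Its median was 0.75 over the members and 0.23 over all genes, and 0.28 over the members without PD-1cKO tumors 4 and 8.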

How the data were processed

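The authors deposited FPKM per gene for 46 samples, made with the Omicsoft aligner in Array Studio on the mouse B38 genome with Ensembl genes, from stranded libraries depleted of ribosomal RNA. No counts were used, so no count model was fitted, and the depth of single libraries is not given in the sources used here, only a range over all samples. Symbols came from GENCODE M21, which matched 99.3% of gene identifiers, and groups came from the labels. The members and lists were chosen with earlier results of these data known.

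Genes averaging 0.5 FPKM or more in either compared group were tested as log2(FPKM + 0.1) with limma 3.58.1 (R 4.3.3, eBayes with a trend), in the groups compared only. A gene passed, rose or fell at an adjusted p under 0.01 (Benjamini-Hochberg over all genes tested). Fold changes on this scale understate those of low genes. The fit was tested on simulated data. Named genes were 14 members set for listing by sample, the 2 highest and 2 lowest of each arm or list in a comparison, and the members of counts of 5 or fewer, of which some are given and a list gene is not reported here. Kif11 at baseline and the 8 members without overlap after 2 doses were named after their values were seen. Alternatives were another added value, other filters and scalings, no trend, array weights, all samples in 1 fit, a replicate block, identifier run as a covariate and each replicate left out.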

Additional observations from a re-analysis of the deposited data

Results flagged for a closer look

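A sample standing apart from its group was looked for in 17 measures (the mean of each arm, their difference and 14 genes) and 6 groups, 102 tests in all. The gap of the highest or lowest sample to its neighbor was past Dixon's 95% limit in 11 of them, and chance gives about 1 in 20. Isotype control 1 dose replicate 1 accounted for 8, as the lowest of its group. Its replication mean was 3.62 (next 4.88) and its mitotic mean 4.15 (next 5.22). Its levels were 11.3 FPKM for Cdc20, 7.38 for Plk1, 12.7 for Kif20a, 11.3 for Mcm2, 17.2 for Mcm5 and 5.15 for Ccne1. Mitochondrial genes took 54.6% of FPKM in this library, and their part in these values was not tested. WT replicate 6 was the highest of its group for Cdc20 at 85.6 FPKM (next 64.8) and for Kif20a at 42.8 (next 32.6). PD-1 Ab 2 doses replicate 4 was the highest of its group for Cdc6 at 13.6 FPKM (next 10.3).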

How the results depend on the processing

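Counts are of the 38 members, and the share of all genes passing in each alternative is not given here. A change of count therefore cannot be read as particular to these genes. After 1 dose of PD-1 Ab the count was 0 in every alternative run. After 2 doses it was 4, and 2 with no filter or with median-of-ratios scaling, 1 without a trend, 28 with array weights, 0 with all samples in 1 fit and 0 with the replicate block, and 0 to 6 without each replicate. For PD-1cKO against WT it was 18, and 3 with no filter, 32 with all samples in 1 fit, 10 with the replicate block, 0 with run as a covariate and 4 to 23 without each replicate. For isotype control 2 doses against culture it was 28, 2 with all samples in 1 fit, 9 with the replicate block and 21 to 34 without each replicate. For baseline against culture it was 25, 12 without a trend, 0 with all samples in 1 fit and 11 to 31 without each replicate. Isotype control 2 doses against baseline gave 1 with array weights and 0 to 1 without each replicate, and the difference between 2 doses and 1 dose gave 3 with array weights. The cause was not tested. The alternatives chosen after seeing the data were the 6 kb limit, PD-1cKO tumors 4 and 8 left out and isotype control 1 dose replicate 1 left out with median-of-ratios scaling. With members over 6 kb left out, the mean mitotic minus replication difference was 0.53 in culture, 0.42 at baseline, 0.56 and 0.53 after 1 dose of isotype control and PD-1 Ab, 0.45 and 0.28 after 2 doses and 0.26 in WT. Same-numbered samples deviated together little if at all (correlations from -0.21 to 0.16 over 7 comparisons). Neither labels nor methods state a pairing, and such correlations cannot settle whether the numbers were pairs. Of single members, Birc5 after 2 doses passed in 6 of 19 alternatives, and Mki67, Cdk1 and Pcna in PD-1cKO passed in 30, 14 and 14 of 31. The depth of each library is not given in the sources used here, so no limit was computed from it.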
